A study of Mus musculus with 28 samples.

Results

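Vomeronasal type 2 receptors (Vmn2r genes, also called V2Rs) are class C G protein-coupled receptors with a large extracellular domain, carried by the basal sensory neurons of the vomeronasal organ, where they detect peptide and protein pheromones and signal through the G protein subunit Gnao1. Each such neuron expresses very few of them, while the family C receptors (Vmn2r1 to Vmn2r7) are broadly co-expressed with the others. The genes lie in tandem arrays of close copies. H3K4me3 is a mark of active or poised promoters and H3K27me3 the Polycomb mark of repressed genes, and the question here is where either was called at receptor genes of another sensory organ in striatal neurons. Members were all protein-coding autosomal genes of the GENCODE annotation of mm10 whose symbol is Vmn2r followed by a number, and 119 of 20807 protein-coding autosomal genes met this rule.

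The study profiled both marks by CUT&RUN (CnR), in which an antibody directs micrococcal nuclease to the marked nucleosomes, in medium spiny neuron (MSN) nuclei isolated by INTACT, which captures nuclei through a GFP-tagged nuclear membrane protein. A2a MSNs came from Sun1-sfGFP;A2a-cre mice and D1 MSNs from Sun1-sfGFP;Drd1-cre mice, in which cre opens the R26-CAG-LSL-Sun1-sfGFP tag, so that each population is the set of nuclei with a history of that cre. All mice were C57BL/6J, of both sexes, about 8 weeks old by the methods, and each library used the nuclei of the striatum of 1 animal. Elsewhere the study gives a wider age range, and proposes age among possible reasons for a global signal difference between A2a and D1. Its replicates are called biological in the methods and technical in the reporting summary. Of 28 samples, 8 entered the 4 lists used here (Abcam H3K4me3 antibody or Active Motif H3K27me3 antibody, A2a or D1, 2 replicates each), and the other 20 were not analysed here. Each list was called on its 2 replicates together, so the values below come without replicate errors and A2a and D1 could not be tested against each other. The D1 H3K27me3 libraries carry an A2a source name beside a D1 title and a D1 cell type, and were taken as D1. At the defining genes of each population, an H3K27me3 island with 4153 reads lay at the promoter of Adora2a in D1 and none in A2a, and the island at Drd1 held 1958 reads in A2a and 86 in D1. Of 6 markers of other cells, Mbp carried an H3K4me3 peak in both lists and Mog in the A2a list, while Gfap, Aldh1l1, Cx3cr1 and Itgam carried none. For A2a there were 22551 H3K4me3 peaks and 60191 H3K27me3 islands, with a median of 211 reads an island. For D1 there were 20080 peaks and 45760 islands, with a median of 104 reads. Library totals are not part of the lists, so a promoter outside a list is one without a call at these depths.

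The promoters that carry a call, or do so under another annotation, are given first, as the 250 bases before the 5′ end, with every CG in capitals. A promoter is the stretch from 2 kb before to 1 kb after the annotated 5′ end of the gene. Vmn2r2, Vmn2r3, Vmn2r7 and Vmn2r90 were the only members with a peak or island at the promoter in any list. Their sequences were read from GRCm38 on the strand of the gene, at chr3:64141929-64142178, chr3:64289710-64289959 and chr3:64844766-64845015, all on the minus strand, and chr17:17703497-17703746 on the plus strand. They hold 2, 1, 1 and 1 CG.
Vmn2r2: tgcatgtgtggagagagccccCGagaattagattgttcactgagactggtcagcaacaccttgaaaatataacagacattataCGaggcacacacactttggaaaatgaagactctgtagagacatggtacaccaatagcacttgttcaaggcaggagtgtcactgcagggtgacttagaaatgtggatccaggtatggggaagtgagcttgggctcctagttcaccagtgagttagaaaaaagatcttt
Vmn2r3: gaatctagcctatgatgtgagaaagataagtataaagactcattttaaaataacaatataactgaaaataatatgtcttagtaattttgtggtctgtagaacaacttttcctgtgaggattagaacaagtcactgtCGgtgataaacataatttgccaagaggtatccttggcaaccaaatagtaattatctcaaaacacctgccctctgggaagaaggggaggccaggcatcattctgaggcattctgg
Vmn2r7: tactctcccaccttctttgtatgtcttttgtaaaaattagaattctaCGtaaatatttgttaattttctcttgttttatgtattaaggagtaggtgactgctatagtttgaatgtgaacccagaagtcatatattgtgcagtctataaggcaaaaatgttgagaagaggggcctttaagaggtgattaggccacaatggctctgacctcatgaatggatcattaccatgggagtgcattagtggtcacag
Vmn2r90: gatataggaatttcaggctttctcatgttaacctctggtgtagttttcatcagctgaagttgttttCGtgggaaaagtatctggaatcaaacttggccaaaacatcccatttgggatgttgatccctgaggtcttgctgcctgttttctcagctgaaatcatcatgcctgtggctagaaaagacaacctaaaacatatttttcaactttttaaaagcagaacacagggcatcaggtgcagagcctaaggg

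Vmn2r29 is shown as a pair, because RefSeq gives it a second start that GENCODE gives to Gm45844. The body of Gm45844, another coding gene, spans that of Vmn2r29. The proximal start, shared by both annotations, has chr7:7247329-7247578 before it, and the distal start, 30961 bp upstream, has chr7:7278290-7278539, both on the minus strand of GRCm38.p6. The proximal stretch holds no CG and lies 30.1 kb from the nearest H3K4me3 peak of either list, and the distal stretch holds 17 CG and its start lies inside a peak in both lists.
Vmn2r29 proximal: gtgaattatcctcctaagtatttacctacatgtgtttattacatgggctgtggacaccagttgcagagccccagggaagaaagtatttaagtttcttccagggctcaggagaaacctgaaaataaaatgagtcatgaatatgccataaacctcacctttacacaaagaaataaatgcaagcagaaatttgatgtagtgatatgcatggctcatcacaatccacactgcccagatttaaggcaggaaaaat
Vmn2r29 distal: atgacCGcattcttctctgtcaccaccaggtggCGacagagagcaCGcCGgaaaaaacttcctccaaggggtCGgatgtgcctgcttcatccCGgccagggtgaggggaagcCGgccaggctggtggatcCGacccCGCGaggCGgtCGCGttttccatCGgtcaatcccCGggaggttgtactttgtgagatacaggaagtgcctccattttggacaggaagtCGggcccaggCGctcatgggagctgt

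Vmn2r116, the receptor of the male tear pheromone ESP1, is shown as a member with a known ligand and no call. Its sequence is from the plus strand of GRCm38 at chr17:23384354-23384603, with no CG.
Vmn2r116: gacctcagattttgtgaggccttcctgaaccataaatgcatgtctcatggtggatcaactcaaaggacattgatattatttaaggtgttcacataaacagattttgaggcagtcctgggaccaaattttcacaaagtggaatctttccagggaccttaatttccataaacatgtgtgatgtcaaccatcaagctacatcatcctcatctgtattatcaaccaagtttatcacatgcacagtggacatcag
A RefSeq promoter was found for 113 of 119 members, with 114 starts. At least 1 CG stood in the 250 bases before 63.2% of these starts, with a median of 1, against 92.4% of 31396 autosomal RefSeq starts, with a median of 6. The distal start of Vmn2r29 was the only member start with as many as 17 CG, a number reached by 24.1% of all starts, and the next highest member start had 4.

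No Vmn2r promoter carried an H3K4me3 peak in either MSN type. The count was 0 of 119 in A2a, where 59.3% of all protein-coding autosomal promoters overlapped a peak, and 0 of 119 in D1, where 56.8% did. Over the whole gene bodies the count was again 0 of 119 in each list, against 64.5% of all genes in A2a and 61.8% in D1. This held for the family C receptors as for the others, and for the receptors with a known ligand, Vmn2r116 and the MHC peptide receptor Vmn2r26. It also held with the window widened to 5 kb on either side and with any annotated transcript start taken as the promoter. With RefSeq starts, 1 of 113 members, Vmn2r29, overlapped a peak in each list, through its distal start. Of all 15704 protein-coding autosomal genes with a RefSeq start, 62.9% did in A2a and 60.5% in D1.

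H3K27me3 was also rare at these promoters. An island overlapped 2 of 119 promoters in A2a, Vmn2r7 and Vmn2r90, against 22.4% of all promoters, and 4 of 119 in D1, those of Vmn2r2, Vmn2r3, Vmn2r7 and Vmn2r90, against 15.8%. The members with a call therefore made up 1.68% and 3.36% of the family. An island was present in both lists at 2 members, Vmn2r7 and Vmn2r90, against 14.7% of all genes. No member had an island in A2a alone, against 1592 of 20807 genes. In D1 alone 2 members had one, Vmn2r2 and Vmn2r3, against 218 of 20807 genes. With islands under 2000 bp left out, the D1 call at Vmn2r90 was lost, which left 3 members in D1 and Vmn2r7 alone in both lists. No member had both marks, against 9.84% of all genes in A2a and 5.79% in D1. Neither mark was called at 117 of 119 promoters in A2a and 115 in D1, against 28.2% and 33.2% of all genes. In all, 115 of 119 members had no mark in any of the 4 lists, which was so for 27.4% of all protein-coding autosomal genes.

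**Figure D1:**
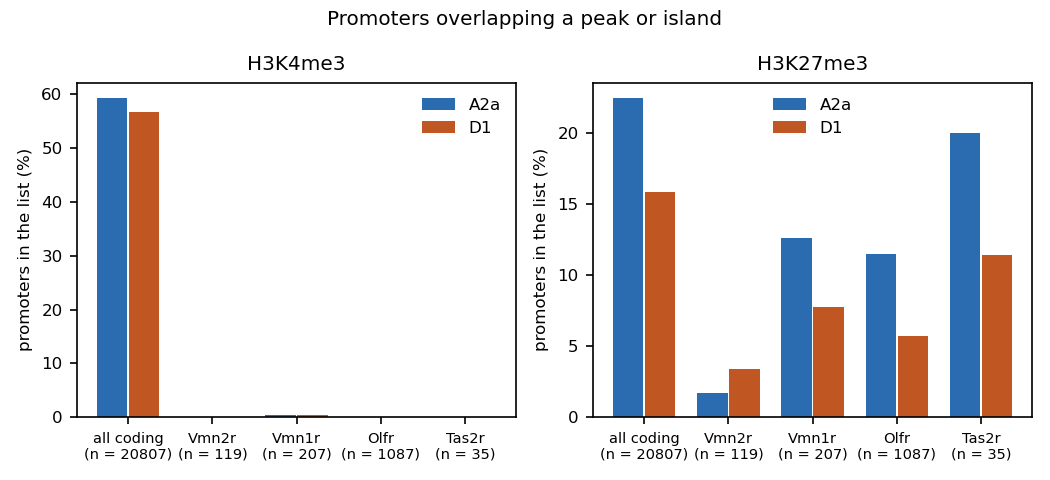
Percent of promoters (2 kb before to 1 kb after the annotated 5′ end) that overlap an H3K4me3 peak (left) or H3K27me3 island (right) in the pooled A2a and D1 lists, for all protein-coding autosomal genes and 4 chemosensory receptor families. The Vmn2r bars are at 0 for H3K4me3 in both lists and at 1.68% (A2a) and 3.36% (D1) for H3K27me3.

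The islands at the 4 promoters ranged, by reads, from percentile 19.4 (Vmn2r90 in D1) to 80.6 (Vmn2r7 in A2a) of their lists. The Vmn2r90 island spanned chr17:17700601-17704800 in A2a, 4.2 kb with 192 reads, and chr17:17702801-17704600 in D1, 1.8 kb with 71 reads. By reads these stood at percentile 44.2 of the A2a list and 19.4 of the D1 list. Both covered the annotated 5′ end of Vmn2r90, and with it the sequence shown above.

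The Vmn2r7 island held the most reads of any at a member promoter, at chr3:64840001-64846600 in A2a, 6.6 kb with 426 reads, which is percentile 80.6 of that list. In D1 it was 2.2 kb long with 84 reads, at chr3:64842001-64844200, and ended 0.565 kb inside the gene from the 5′ end. The place of this promoter depends on the annotation. The GENCODE 5′ end of Vmn2r7 lies 119726 bp from its start codon and 125163 bp from the RefSeq start, and its promoter is shared with the processed transcript Gm26939. From the RefSeq start of Vmn2r7, no island of either list was closer than 47.6 kb. By RefSeq starts the counts were thus 1 of 113 in A2a and 3 of 113 in D1, against 22.4% and 15.8% of 15704 genes.

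Vmn2r2 and Vmn2r3 had promoter islands in D1 and none in A2a. The D1 island at Vmn2r2 lay at chr3:64142401-64145800, 3.4 kb with 99 reads, starting 0.473 kb upstream of the 5′ end and so beyond the sequence shown. The D1 island at Vmn2r3 lay at chr3:64289201-64292400, 3.2 kb with 107 reads, across the 5′ end. In A2a the nearest island was 26.5 kb from the 5′ end of Vmn2r2 and 30.7 kb from that of Vmn2r3. Both genes kept their D1 call with RefSeq starts.

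Counted over gene bodies, islands overlapped 6 of 119 members in A2a (28.7% of all genes) and 5 of 119 in D1 (21.7% of all genes), 8 different members in all. Vmn2r7, Vmn2r90 and Vmn2r87 were covered in part in both lists, Vmn2r19, Vmn2r24 and Vmn2r82 in A2a and Vmn2r2 and Vmn2r3 in D1. The 3 single-list A2a islands had 182 reads over 3.0 kb in Vmn2r19, 222 reads over 5.2 kb in Vmn2r24 and 113 reads over 2.0 kb in Vmn2r82. At Vmn2r87, the islands held 254 reads over 3.6 kb in A2a and 133 reads over 3.0 kb in D1, and lay at the 3′ end of the gene, 24.8 kb and 25.6 kb from its 5′ end. The pseudogene Gm18755 lies there too, and an A2a H3K4me3 peak of 0.513 kb at fold enrichment 5.67 covered its promoter. Both marks were thus called in A2a beside the 3′ end of Vmn2r87.

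The 7 family C genes form 1 cluster of 0.763 Mb on chromosome 3, at chr3:64081547-64844765, and this cluster held more islands than any other Vmn2r cluster. It contained 13 of the 18 D1 islands found in all Vmn2r clusters, but only 10 of the 24 A2a islands, and no H3K4me3 peak. At the promoters, 1 of 7 family C members had an island in A2a and 3 of 7 in D1, against 1 of 112 other members in each list. The islands covered 5.71% of the cluster in A2a and 5.06% in D1, while the 1-Mb flanks were covered to 15.7% and 16.3%. The A2a islands ranged from 127 to 426 reads and the D1 islands from 46 to 259 reads.

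**Figure D2:**
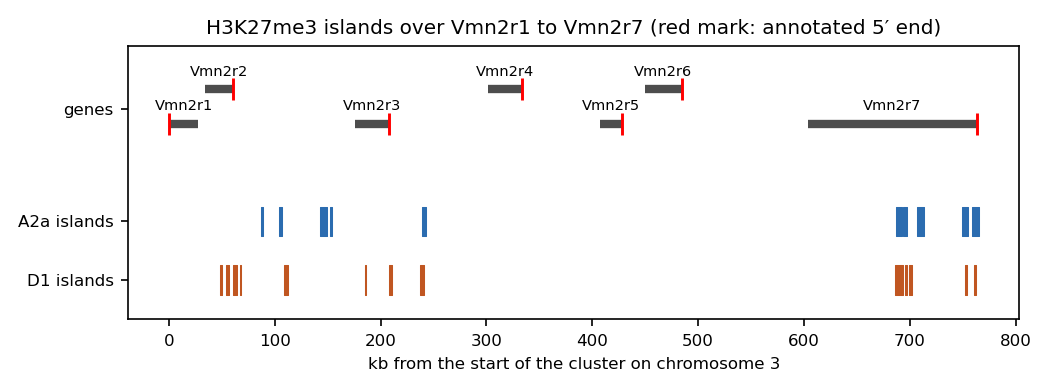
Map of the family C cluster, with the 7 genes as grey bars, their annotated 5′ ends as red marks and the H3K27me3 islands of the A2a and D1 lists below, against distance from the cluster start in kb. Islands fall in 2 groups, around Vmn2r2 to Vmn2r3 and along Vmn2r7, and none lies over Vmn2r4, Vmn2r5 or Vmn2r6.

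Islands lay in the same places in part only. In this cluster, 5 of 10 A2a islands and 5 of 13 D1 islands met one of the other list. In the other Vmn2r clusters, 5 of 14 A2a islands and 5 of 5 D1 islands did. The share over the whole lists was not counted, so these counts have no background. Along Vmn2r7, 4 of 5 islands in each list were shared, while the 4 D1 islands from 64129801 to 64149600, around the 5′ end of Vmn2r2, and the 2 in Vmn2r3 had no A2a counterpart. Between 64324001 and 64767200 no mark of any list was called over 0.443 Mb, a stretch that holds the 5′ ends of Vmn2r4, Vmn2r5 and Vmn2r6. Of these, the promoter of Vmn2r5 was only 8.43% unique, counted as the share of its 50-base windows that occur once in the genome, and those of Vmn2r4 and Vmn2r6 were 46.8% and 41.5% unique. The part of repeated sequence in this stretch was not tested.

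Elsewhere most Vmn2r promoters were far from any call. The distance from the annotated 5′ end to the nearest H3K4me3 peak had a median of 295 kb in A2a and 321 kb in D1, and to the nearest island a median of 396 kb and 610 kb. Over all protein-coding autosomal genes the medians were 0.0 kb and 0.002 kb for peaks and 27.7 kb and 52.4 kb for islands. A peak within 100 kb was found for 24 members in A2a and 21 in D1, which is 20.2% and 17.6%, against 85.7% and 84.2% of all genes. An island within 100 kb was found for 23 members in A2a and 18 in D1, which is 19.3% and 15.1%, against 76.7% and 64.8% of all genes. Neighbouring members share the same nearest call, so these are not independent values.

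**Figure D3:**
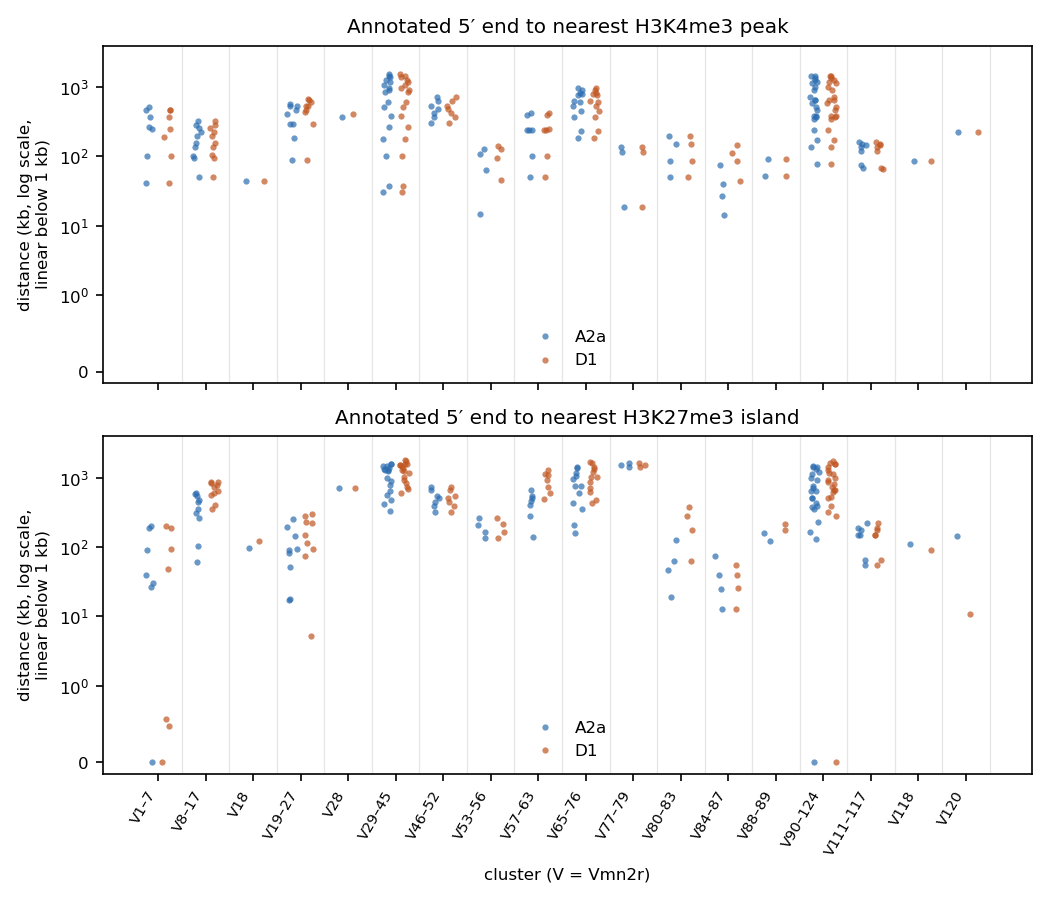
Distance in kb from the annotated 5′ end of each of the 119 members to the nearest H3K4me3 peak (top) and H3K27me3 island (bottom), by cluster, A2a and D1 side by side. No member is nearer than 14.2 kb to a peak, and points at 0 in the lower panel are members whose 5′ end lies inside an island.

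The members nearest to H3K4me3 came from several arrays. Vmn2r86 lay 14.2 kb and Vmn2r56 lay 14.6 kb from an A2a peak, and 85.4 kb and 44.9 kb from a D1 peak. Vmn2r77 lay 18.9 kb from a peak in both lists, and Vmn2r87 26.6 kb from a peak in A2a and 44.1 kb in D1. In D1 the next nearest were Vmn2r29 at 30.1 kb, then Vmn2r30, then Vmn2r1 at 41.2 kb. Vmn2r77 joined a near peak with the most distant island of the A2a list, 1635 kb away.

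Among members with no island at the promoter, Vmn2r86 (13.0 kb), Vmn2r19 (17.1 kb), Vmn2r24 (17.5 kb) and Vmn2r82 (18.9 kb) were nearest to an A2a island. In D1 the nearest were Vmn2r19 (5.13 kb), Vmn2r120 (10.9 kb), Vmn2r86 (12.8 kb) and Vmn2r87 (25.6 kb). Vmn2r120, a gene with no neighbour of its family, was 143 kb from the nearest A2a island. The farthest members were Vmn2r40, at 1549 kb from a peak in both lists, and Vmn2r45, at 1837 kb from a D1 island, both in the array of Vmn2r29 to Vmn2r45.

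The genes outside arrays of 3 or more gave no exception. Vmn2r18, Vmn2r28, Vmn2r118 and Vmn2r120 stand alone, and Vmn2r88 and Vmn2r89 form a pair. None of the 6 had a call of either mark over its body. Their nearest peak lay between 44.2 kb (Vmn2r18) and 368 kb (Vmn2r28) away in A2a, and their nearest island in A2a between 97.2 kb (Vmn2r18) and 711 kb (Vmn2r28). Among the members with known ligands, Vmn2r26 lay 295 kb from a peak in both lists and 92.0 kb and 92.2 kb from an island, and Vmn2r116 lay 162 kb from a peak and 149 kb from an island in both.

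Chained at gaps of up to 500 kb, the members formed 18 clusters, single genes included, with 12.5 Mb in all. They were on chromosomes 7 (51 members), 17 (31), 5 (11), 6 (9), 10 (8), 3 (7) and 14 (2). H3K4me3 peaks numbered 19 in the clusters in each list, or 1.52 per Mb, against 8.86 per Mb of autosome in A2a and 7.88 in D1, and against 15.3 and 14.4 per Mb in the 1-Mb flanks. Islands covered 0.806% of the clusters in A2a and 0.395% in D1, against 12.1% and 7.43% of the autosomes and 4.28% and 2.26% of the flanks. Island cover was lower in the cluster than in its own flanks in 16 of 18 clusters in each list. The exceptions were Vmn2r84 to Vmn2r87, with 3.01% against 2.39% in A2a and 2.51% against 0.718% in D1, and Vmn2r77 to Vmn2r79, where cluster and flanks were both at 0. Without the chromosome 3 cluster, cover was 0.488% in A2a and 0.0923% in D1.

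**Figure D4:**
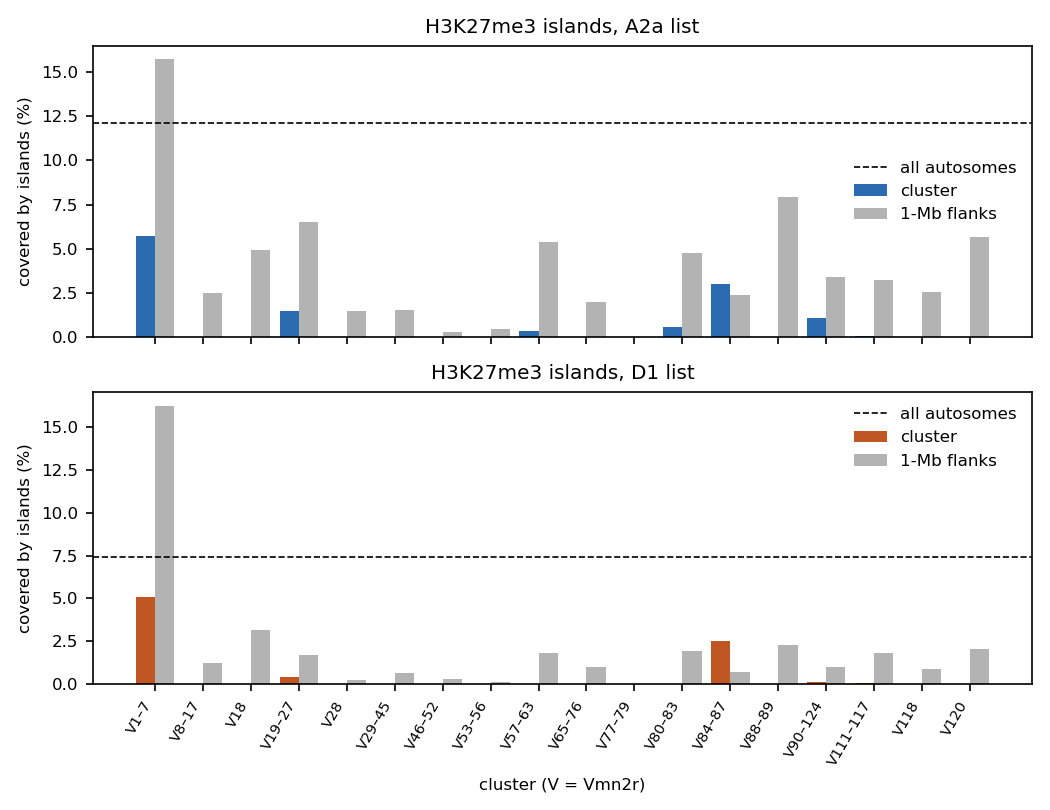
Percent of each Vmn2r cluster covered by H3K27me3 islands, beside its 1-Mb flanks with other Vmn2r clusters left out, in the A2a list (top) and D1 list (bottom). The dashed line is the cover of all autosomes, 12.1% in A2a and 7.43% in D1, and no cluster reaches it.

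Calls were absent from 9 of the 18 clusters and from long stretches of others. The 9 clusters, with 32 members and 2.35 Mb together, held no peak and no island in any list, and 5 of them were single genes or a pair. The longest of them was Vmn2r65 to Vmn2r76 on chromosome 7, with 12 members over 1.31 Mb. In the largest cluster, Vmn2r90 to Vmn2r124 on chromosome 17, all calls lay in the first part, up to 17919600, among Vmn2r90, Spaca6, Has1 and the formyl peptide receptors Fpr1 to Fpr3. The remaining 2.68 Mb, with the 5′ ends of 21 members, held none. In Vmn2r29 to Vmn2r45 on chromosome 7, a stretch of 1.92 Mb with 16 members held none either.

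No peak inside the clusters lay at the GENCODE promoter of a member. In each list 10 of the 19 peaks lay at a promoter of another coding gene, among them Gm45844, whose start RefSeq also gives to Vmn2r29. A further 5 peaks in A2a and 4 in D1 lay at promoters of other gene types only, and 4 and 5 at no annotated promoter. In each list 18 of 19 overlapped a peak of the other list, and the share over the whole lists was not counted. Of 31 other coding genes whose bodies overlap the clusters, 11 had an H3K4me3 peak at the promoter in A2a and 11 in D1. This is 35.5%, against 59.3% and 56.8% of all protein-coding autosomal genes. They include the zinc finger genes Zfp788, Zfp141, Zfp975 and Zfp976 in the cluster of Vmn2r57 to Vmn2r63, Zfp945 and Zfp40 in that of Vmn2r111 to Vmn2r117, and Spaca6 in that of Vmn2r90 to Vmn2r124. Values were high at some of these, with −log10 q of 214 in A2a and 116 in D1 at Zfp788 and 209 and 120 at Zfp40, so strong peaks were called between receptor genes that had none. An island overlapped the promoters of 3 of the 31 genes in A2a (Fpr1, Fpr2 and Fpr3, through 1 island of 413 reads) and none in D1.

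1 narrow site stood apart. At chr17:22877601-22878200, in the cluster of Vmn2r111 to Vmn2r117, an A2a island of 0.6 kb held 182 reads per kb, the densest in the clusters, where A2a islands averaged 58.3 reads per kb. A D1 island of 0.8 kb with 82.5 reads per kb and a D1 H3K4me3 peak of 0.377 kb lay at the same place. It was 64.8 kb from the 5′ end of the nearest member, Vmn2r113, and at no annotated promoter.

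The Vmn2r promoters are poor in CG and in part repeated. The 3-kb promoters held a median of 11 CpG, from 4 in Vmn2r10 and Vmn2r111 to 43 in Vmn2r44, against a median of 74 over all protein-coding autosomal genes, and their median GC content was 35.4% against 49.2%. The 4 promoters with islands held 20 (Vmn2r2), 16 (Vmn2r3), 10 (Vmn2r7) and 9 (Vmn2r90) CpG. Among all 6791 protein-coding autosomal genes with at most 43 CpG, H3K4me3 was present at 7.44% in A2a and 5.89% in D1, and H3K27me3 at 22.6% and 13.1%. H3K4me3 was rare in this CpG range in general, while islands were about as frequent as over all genes in A2a and more frequent than at the members in both lists. The cut of 43 is the value of the highest member, and the third quartile of the members was 14. The 6791 genes are therefore not matched to the members in CpG.

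Part of the family lies in repeated sequence, where the mapping filter removes reads. A median of 85.1% of the 50-base windows of a member promoter occurred once in the genome, against 98.9% over all genes, 30 members were under 50% and 18 under 10%. The lowest were in Vmn2r29 to Vmn2r45, where 13.4% of windows were unique, and Vmn2r46 to Vmn2r52 with 28.1%. Over all clusters 64.0% of windows were unique, against 83.2% in the flanks. Of the 89 members with at least 50% unique windows, 0 had an H3K4me3 peak in either list, 2 had an island in A2a and 4 in D1, the same 4 genes as over all members. Of all 19945 protein-coding autosomal genes at this limit, 61.5% had a peak in A2a and 59.0% in D1. An island was present at 23.3% and 16.4% of them. Of the clusters with the 3 longest stretches without calls, Vmn2r90 to Vmn2r124 (2.68 Mb) was 85.9% unique and Vmn2r65 to Vmn2r76 (1.31 Mb) 82.8%, whereas Vmn2r29 to Vmn2r45 (1.92 Mb) was the 13.4% unique cluster named above. The part of repeated sequence in that stretch was not tested.

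**Figure D5:**
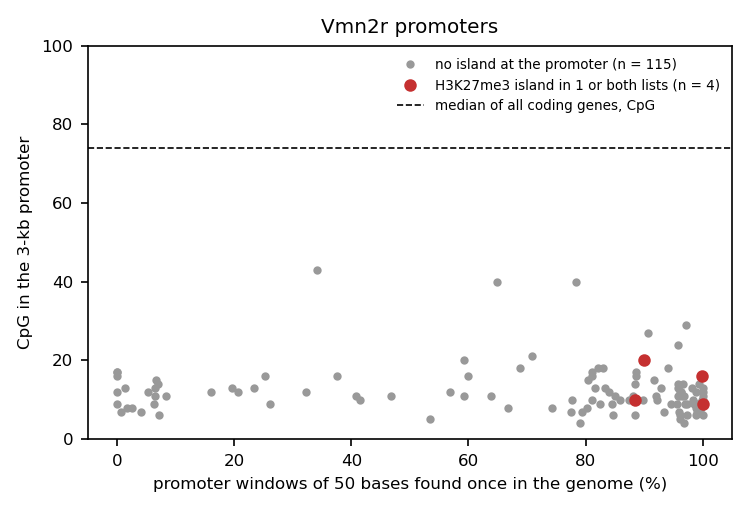
CpG in the 3-kb promoter of each of the 119 members against the percent of its 50-base windows found once in the genome. The 4 members with an H3K27me3 island (red) lie at 88.5% unique or more and at 9 to 20 CpG, among members without one, and all members lie below the median of 74 CpG of all coding genes.

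The other chemosensory receptor families had almost no H3K4me3 either, and a larger share of promoters with islands than Vmn2r. Among 207 Vmn1r genes, the receptors of the apical vomeronasal neurons, 1 (Vmn1r4) had a peak in each list, and 26 (12.6%) had an island in A2a and 16 (7.73%) in D1. Among 1087 odorant receptor genes (Olfr) none had a peak, and 125 (11.5%) and 62 (5.70%) had an island. Among 35 bitter taste receptor genes (Tas2r) none had a peak, and 7 and 4 had an island. The island with most reads in the Olfr family was that at Olfr1410, with 2271 reads in A2a and 802 in D1, and in the Vmn1r family that at Vmn1r39, with 729 and 230 reads, both above the 426 and 107 reads that were the highest at a Vmn2r promoter. Vmn1r promoters were like those of Vmn2r in CpG (median 11) and in unique windows (median 87.9%). The families were set side by side by their counts only, since neighbouring receptors share islands and are not independent.

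Genes of the vomeronasal pathway were read from a list of 69. The ligands had no mark at all: 0 of 15 Esp genes (exocrine gland peptides) and 0 of 22 Mup genes (major urinary proteins) overlapped a call in any list. The same was so for the 4 Fpr-rs receptors. Of the 9 genes of the H2-M group and B2m, whose products accompany Vmn2r receptors in the vomeronasal neuron, B2m had both marks in both lists and H2-M10.4 an A2a island of 207 reads. Of 9 signalling genes 6 had H3K4me3 in each list, namely Gnao1, Gnai2, Gng8, Plcb2, Kcnn3 and Kcnj3, several of which are widely used in neurons. The vomeronasal channel gene Trpc2 had no mark. Of 10 maturation and transcription factor genes, 7 had an island in each list, led in A2a by Lhx2 (5343 reads) and Omp (4419 reads), the olfactory marker protein, which held 1125 reads in D1. The other 3, Meis2, Bcl11b and Gap43, had no island at the promoter and an H3K4me3 peak in each list. Over the whole pathway list 12 genes (17.4%) had a peak in A2a and 11 (15.9%) in D1, against 59.3% and 56.8% of all genes. An island was present at 11 (15.9%) and 10 (14.5%), against 22.4% and 15.8%, so that the share in D1 was near that of all genes.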

How the data were processed

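CnR libraries of A2a and D1 MSN nuclei were aligned by the authors to mm10 with Bowtie2 2.1.0, kept at mapping quality 20 or more (SAMtools 0.1.19), freed of duplicates and restricted to insert sizes from 150 to 500 bp. MACS2 gave the H3K4me3 peaks at q 0.01, and the deposited values are a score, the −log10 of p and of q (only q was used), and the fold enrichment (a ratio) of each peak. H3K27me3 islands were called with SICER (windows of 200 bp, gaps of 600 bp), and the deposited value is the raw read count of each island, not scaled for depth or length. The control of either caller is not given in the sources used here. Each deposited list pools 2 replicates, so depth per library is unknown and nothing was tested between A2a and D1.

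Genes came from GENCODE release 21 (mouse) on GRCm38, the assembly of mm10, and promoter sequences from RefSeq on GRCm38.p6. A promoter (2 kb upstream to 1 kb downstream) was in a list if 1 bp overlapped. Clusters were members within 500 kb of each other, flanks 1 Mb on either side. A 50-base window was unique if it occurred once on either strand of the primary assembly. Percentiles rank a peak by −log10 q or an island by reads within its list. Python 3.11.15, numpy 2.4.6, pandas 2.3.3, scipy 1.17.1 and numba 0.67.0 were used, and the overlap and uniqueness code was tested on simulated data. Named members were those with a call at the promoter or over the body, the 4 nearest to a call in each list, those outside clusters of 3 or more, and Vmn2r1, Vmn2r26 and Vmn2r116. The members and lists were chosen with earlier results of these data known. Alternatives were other windows, starts, overlaps, thresholds and cluster gaps.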

Additional observations from a re-analysis of the deposited data

How the results depend on the processing

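Over 18 counts, densities, covers and medians, 128 values were recomputed under other settings. Of these, 118 stayed within 1.5 times the reported value and 10 moved. For distances the limit was instead a nominal 95% interval of the median over members. That interval takes members as independent, which they are not, so it served as a yardstick only. A change of direction was not scored. The 118 include values that could not move. Among these are the D1 lists at equal numbers, D1 being the smaller list, and settings that changed the background genes alone. Counts of 0 also could not rise under settings that only narrow the window, demand more overlap, or remove calls or members. With pseudogenes and other gene types included, 2 of 235 Vmn2r genes (Vmn2r-ps18 and Vmn2r-ps19) had an H3K4me3 peak in A2a and 2 in D1, in place of 0. Of all 51229 autosomal genes of any type, 31.5% had one in A2a and 29.9% in D1. With RefSeq starts, a setting added after the data were seen, the H3K4me3 count was 1 in A2a and 1 in D1 (Vmn2r29), and the A2a H3K27me3 count 1, with 0 in family C, since Vmn2r7 starts elsewhere. With clusters chained at 200 kb, which leaves out most interleaved genes, peaks per Mb were 0.431 in A2a and 0.323 in D1. With islands of at least 2000 bp, the D1 H3K27me3 count was 3, without Vmn2r90, against 14.5% of all protein-coding autosomal genes. Without the chromosome 3 cluster, also added after the data were seen, islands covered 0.488% in A2a and 0.0923% in D1. Leaving out a replicate could not be run, because each list pools its replicates. No paired analysis was possible because the lists carry no replicate numbers. The lists are cut at a threshold, so weaker enrichment at members was not visible, and at the 30 promoters under 50% unique a mark could be missed. Only exact copies of a 50-base window were counted, so reads could also be lost at other promoters that have near copies.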
